A study of Homo sapiens with 27 samples.

Results

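MGMT-transfected LN-229 cells and their WT transfection control were compared after a single dose of temozolomide (TMZ), in 3 libraries each, paired by replicate number. These were 6 of the 27 libraries of the series, chosen by their labels. LN-229 is an established glioblastoma line. The MGMT line carries a transfected MGMT gene, and WT means the transfection control and not the parental line. The labels name neither the promoter of the transgene nor whether each line is 1 clone. Both lines received 1 mM TMZ once, and DNA was taken 24 h after the dose. The solvent controls used as background were the same lines given 1% DMSO once, with 3 libraries of each line. Naked LN-229 DNA treated with 1 mM TMZ outside cells served as the reference for methylation without any repair. It had 3 libraries, with DNA from cells labelled non-transfected in replicate 1, WT cells in replicate 2 and MGMT cells in replicate 3. The design text calls the replicates biological.

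TMZ breaks down in water to a methylating agent that attacks DNA bases, and methylation at the O6 position of guanine is the lesion that kills dividing cells, because it pairs with thymine and draws mismatch repair into futile cycles. MGMT, O6-methylguanine-DNA methyltransferase, takes the methyl group from the guanine onto one of its own cysteines, restores the base in a single step and is used up in doing so. Silencing of MGMT by promoter methylation is a well-known marker of response to TMZ in glioblastoma.

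O6-MeG-seq enriches DNA fragments carrying O6-methylguanine with an antibody and reads the base at which a high-fidelity polymerase stalls. Each deposited list gives the positions marked in a library, with strand, base and a score. A position and strand is listed once, so a value here is a number of distinct marked sites and not a number of reads, and lesions present in more of the cells cannot be told apart from lesions that were captured more often. Sites on chromosomes 1 to 22 and on the mitochondrial chromosome with a score of at least 30 were used. A site at G can carry the lesion. Sites at A, C and T, called non-G sites below, cannot, and they serve as the scale within each library. The share of A among them also differed between TMZ and solvent libraries, as given below. G sites were therefore read against the non-G sites of the same library, either as the share of all sites (G share) or as the ratio of G to non-G sites.

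To show what such marks look like, the 250 bases before a gene start were taken for the promoters with the most G sites in the 6 TMZ libraries together, 2 in number, from RefSeq sequences (GRCh38.p14). Capitals stand for marked guanines. A capital G was marked on the printed strand and a capital C is opposite a guanine marked on the other strand. LOC124904770 has its promoter window at chr19:54416852-54417101 on the plus strand, and that of CTCFL, a zinc-finger paralog of CTCF normally restricted to testis, is at chr20:57525653-57525902 on the minus strand.
LOC124904770 in WT: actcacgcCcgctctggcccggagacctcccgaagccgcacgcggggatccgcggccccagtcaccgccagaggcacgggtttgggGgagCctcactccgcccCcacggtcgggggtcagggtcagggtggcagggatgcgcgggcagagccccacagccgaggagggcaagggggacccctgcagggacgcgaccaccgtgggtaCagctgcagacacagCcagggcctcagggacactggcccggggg
LOC124904770 in MGMT: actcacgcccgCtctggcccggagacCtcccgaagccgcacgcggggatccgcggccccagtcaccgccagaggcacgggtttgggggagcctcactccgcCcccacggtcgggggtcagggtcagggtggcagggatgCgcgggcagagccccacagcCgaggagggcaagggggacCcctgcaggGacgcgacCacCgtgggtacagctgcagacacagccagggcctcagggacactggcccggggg
CTCFL in WT: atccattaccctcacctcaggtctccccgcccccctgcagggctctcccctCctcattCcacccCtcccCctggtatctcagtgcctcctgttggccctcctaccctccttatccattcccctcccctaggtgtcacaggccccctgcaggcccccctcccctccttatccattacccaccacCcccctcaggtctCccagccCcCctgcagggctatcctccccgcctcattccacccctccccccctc
CTCFL in MGMT: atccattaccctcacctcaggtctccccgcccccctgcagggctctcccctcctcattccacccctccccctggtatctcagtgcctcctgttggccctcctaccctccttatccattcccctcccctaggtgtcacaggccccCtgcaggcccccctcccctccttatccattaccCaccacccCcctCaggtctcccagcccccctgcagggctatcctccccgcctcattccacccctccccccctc
The LOC124904770 window held 5, 3 and 1 G sites in MGMT replicates 1, 2 and 3, and 3, 3 and 1 in WT. None of its positions was marked in both lines. The CTCFL window held 0, 0 and 4 sites in MGMT and 1, 3 and 5 in WT, again at different positions. Sharing was rare over all sites too. The WT library of the same number also marked 0.300%, 1.53% and 0.970% of the sites of MGMT replicates 1, 2 and 3. In the CTCFL window 7 of the 8 positions marked in WT followed another G on their own strand, against 1 of the 4 marked in MGMT. Over all RefSeq promoter sequences a G preceded 45.9% of G sites in WT and 44.2% in MGMT on average. These windows were picked for their many marks and serve as illustration, since 38.1% of all 33558 promoter windows held 0 G sites in the 6 libraries and the highest held 16. The promoter window of MGMT itself held 1 G site, in WT replicate 1.

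The 6 TMZ libraries held 1923955, 2669814 and 3058408 used sites in MGMT and 1856595, 4489278 and 5013318 in WT (replicates 1, 2 and 3). As a check of the line, the CDKN2A and CDKN2B region at chr9:21967752-22009313, homozygously deleted in LN-229, held 1 site in MGMT replicate 1 and 0 in the other 5 libraries, where the median density of chromosome 9 would give 25.6 to 69.6. Replicate 1 stood apart in both lines. The MGMT solvent library of replicate 1 had a G share of 43.7%, above the 37.4% of the TMZ library of the same number, whereas its fellows had 19.9% and 19.4%. It also shared 156961 exact sites with that TMZ library, which is 18.0% of the solvent library and 8.16% of the TMZ library. In WT replicate 1 the TMZ and solvent libraries shared 63871 sites, 10.7% of the solvent library and 3.44% of the TMZ library. Results are therefore given also without replicate 1 where they rest on it, and without shared sites. An exchange of the TMZ and solvent labels of MGMT replicate 1 was not tested. If they were exchanged, pair 1 would set 43.7% in MGMT against 44.8% in WT, and the mean difference in G share described next would be -6.33 points. MGMT replicate 1 below means the library labelled so.

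G sites were a smaller part of the library in MGMT cells than in WT cells in each of the 3 pairs. In MGMT the G share after TMZ was 37.4%, 32.6% and 43.9% in replicates 1, 2 and 3. In WT it was 44.8%, 41.9% and 52.6%. The groups overlapped, because MGMT replicate 3 lay above WT replicate 2, but within every pair the MGMT library was lower. The MGMT libraries averaged 38.0% ± 5.69 (SD, n = 3). The WT libraries averaged 46.4% ± 5.51 (SD, n = 3). The pair differences were -7.42, -9.28 and -8.61 percentage points, with a mean of -8.44 ± 0.942 (SD, n = 3 pairs), so the spread between pairs was much smaller than the spread between replicates of a line. An exact permutation test of 3 against 3 gave p = 0.2 (two-sided, smallest possible 0.1). The exact sign-flip test over pairs gave p = 0.25 (two-sided), the smallest it allows. Without replicate 1 the mean difference was -8.95 points, and without sites shared among the 12 libraries given 1 exposure it was -8.50. Counting error was small beside these values, with 95% Wilson half-widths of at most 0.0715 points, which cover counting error only.

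**Figure D1:**
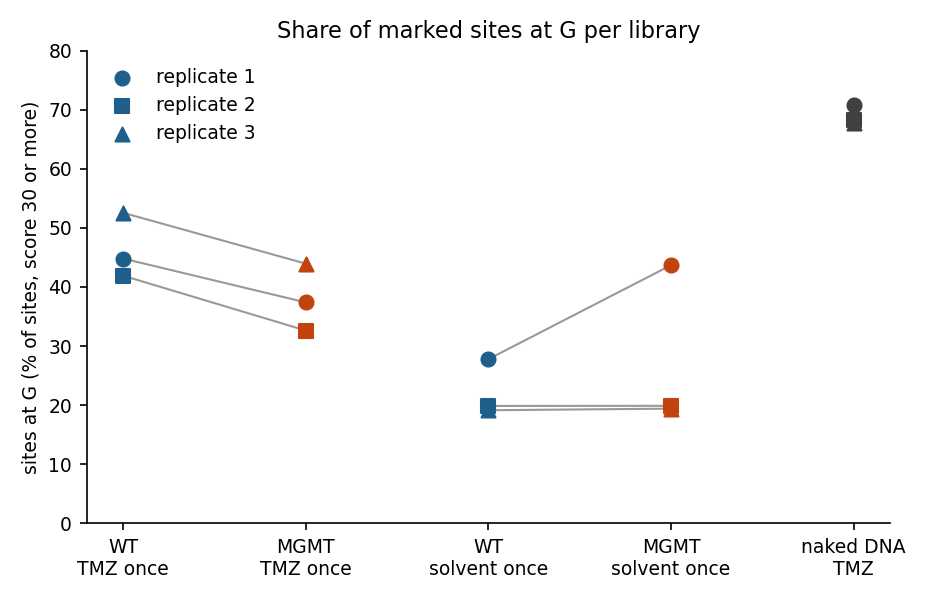
Share of marked sites at G (percent of sites with a score of at least 30) in each library, with grey lines joining libraries of the same replicate number. All 3 MGMT libraries given TMZ lie below the WT library of their number, with differences of -9.28 to -7.42 points, the MGMT solvent library of replicate 1 lies at 43.7%, and the naked DNA libraries lie between 67.8% and 70.9%.

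Under solvent the lines had nearly the same G share in replicates 2 and 3. It was 43.7%, 19.9% and 19.4% in MGMT and 27.8%, 19.9% and 19.1% in WT. The pair differences were 15.9, 0.0208 and 0.274 points, and the first of them includes the library that stood apart. Naked DNA treated with TMZ reached 70.9%, 68.2% and 67.8%, above every library from cells. Both lines after 1 dose therefore lay between solvent and naked DNA, except MGMT replicate 1, which lay below its own solvent control.

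The excess over solvent was taken as the ratio of G to non-G sites under TMZ minus that under solvent in the same replicate. In MGMT it was -0.179, 0.236 and 0.543, and in WT it was 0.427, 0.474 and 0.871. MGMT was lower in all 3 pairs, and the negative value of replicate 1 has no reading as an amount of lesion. In replicates 2 and 3 the excess in MGMT was 0.499 and 0.624 times that in WT. The mean difference was -0.391 ± 0.192 (SD, n = 3 pairs, exact permutation p = 0.3, exact sign-flip p = 0.25), and -0.283 without replicate 1.

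The other bases shifted the other way, as shares must. Among the non-G sites alone, T made up 40.7%, 42.02% and 41.6% in MGMT and 40.2%, 41.2% and 39.8% in WT, and A made up 35.2%, 33.7% and 35.4% against 36.3%, 36.4% and 38.2%. A was thus a smaller part of the non-G sites in MGMT in every pair. In naked DNA treated with TMZ, A made up 58.0%, 51.2% and 50.6% of non-G sites, against 33.3% to 38.6% in the 6 solvent libraries. Naked DNA and solvent-treated cells differ in more than TMZ. Under solvent A made up 38.6%, 33.3% and 33.7% in MGMT and 35.2%, 34.1% and 33.7% in WT. It was thus higher under TMZ in every WT replicate and in MGMT replicates 2 and 3, but lower in MGMT replicate 1. Non-G sites therefore cannot be taken as independent of TMZ. With A left out of the denominator, the G share was 48.3% in MGMT and 57.8% in WT on average, a difference of -9.47 points.

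Under the labels as given, the deficit in MGMT was present on every autosome. On chromosome 1, the log2 ratio of G to non-G sites was -0.71, -1.01 and -0.31 in MGMT and -0.28, -0.45 and 0.17 in WT. MGMT was lower in each pair, although the groups overlapped here too. Fitted with limma and the replicate number as a block, the difference was lower in MGMT on 22 of 22 autosomes (100% of those tested, Benjamini-Hochberg adjusted p of at most 5.51e-07) and ran from -0.55 to -0.46. Over the autosomes, pair 1 ran from -0.49 to -0.36, pair 2 from -0.61 to -0.53 and pair 3 from -0.54 to -0.42, with no autosome above 0 in any pair under the labels as given. With the TMZ and solvent labels of MGMT replicate 1 exchanged, pair 1 ran from -0.22 to 0.22 and lay above 0 on 5 of the 22 autosomes. The 22 autosomes come from the same 6 libraries and are not independent replicates. The limma p-values pool the spread over the autosomes as though they were independent, so they overstate what 3 pairs can show. For the G share of all used sites the exact tests gave p = 0.2 (permutation) and p = 0.25 (sign-flip). The calls rest on the pairing by replicate number. Without it limma called 0 of 22 (smallest adjusted p 0.184, 5 with an unadjusted p under 0.05), and 0 of 22 with the spread shared over the 12 libraries given 1 exposure (smallest adjusted p 0.310, 2 with an unadjusted p under 0.05).

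**Figure D2:**
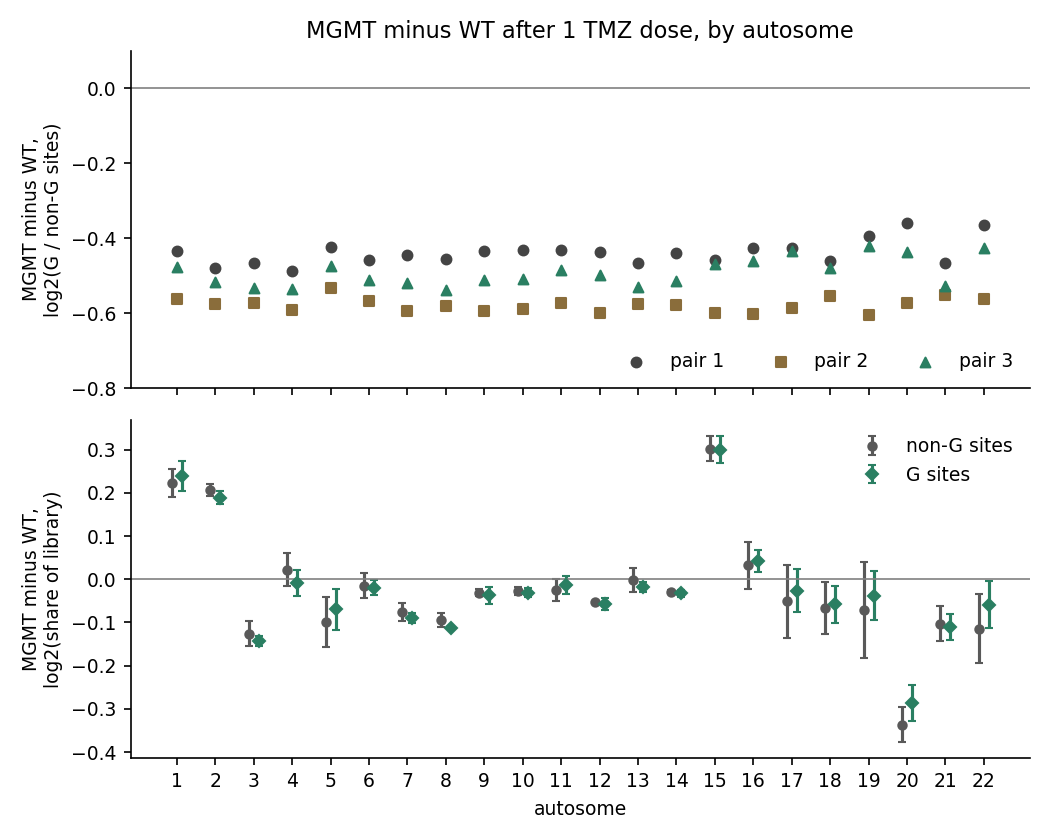
Upper panel, MGMT minus WT of log2(G / non-G sites) after 1 TMZ dose on each autosome, 1 symbol per replicate pair, with all values between -0.61 and -0.36. Lower panel, MGMT minus WT of the log2 share of each library's non-G sites (circles) and G sites (diamonds) lying on each autosome, as mean and SD of 3 pairs, with both high on chromosomes 1, 2 and 15 and low on chromosomes 3 and 20.

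On the mitochondrial chromosome the lines were not told apart. Its G share was 34.5%, 27.3% and 31.3% in MGMT and 35.6%, 29.2% and 31.2% in WT. The groups overlapped fully and the pairs did not go one way (-1.08, -1.88 and 0.128 points). The mean difference was -0.945 ± 1.01 (SD, n = 3 pairs, exact permutation p = 0.8, exact sign-flip p = 0.5). It was -0.476 without replicate 2, -1.48 without replicate 3 and -0.230 with a minimum score of 40. Without shared sites the shares were 15.7% in MGMT and 18.8% in WT on average, a difference of -3.12 ± 5.33 points (SD, n = 3 pairs, exact permutation p = 0.3). This small chromosome of 16569 bases holds few positions, and each counts once per library however often it is hit. Of its bases, 14348 were known from marks in the series, 6403 of them G or C, and the libraries had 1617 to 3878 G sites there. Naked DNA reached only 40.4%, 37.1% and 35.5% on this chromosome, so its G share has less room to move than that of the autosomes.

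Where along the genome G sites fell was compared in 1 Mb bins. The first count is of non-G sites, which lie at bases other than the lesion's own. Their density, as a share of the library, differed between the lines in 714 of 2733 bins (26.1%), with 450 higher (16.5%) and 264 lower (9.66%) in MGMT (limma, Benjamini-Hochberg adjusted p of at most 0.05). Without replicate 3 the count was 390. On chromosome 15 the log2 share of non-G sites was higher in MGMT by 0.28, 0.34 and 0.29 in the 3 pairs, and on chromosome 20 the differences were -0.32, -0.30 and -0.38. Chromosomes 1 and 2 were higher (mean 0.22 and 0.21) and chromosome 3 lower (mean -0.13). These 5 chromosomes, named for their differences in the same data, held 511 of the 714 bins. Of the bins tested, 156 of 230 were called on chromosome 1, 173 of 241 on chromosome 2 and 57 of 198 on chromosome 3. On chromosomes 15 and 20, 70 of 83 and 55 of 64 were called. Elsewhere the calls ran from 0 of 190 on chromosome 4 to 43 of 158 on chromosome 7 and 31 of 82 on chromosome 16.

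G sites of the same bins, scaled only to their own library, followed this map. They differed in 733 bins (26.8%), with 481 higher (17.6%) and 252 lower (9.22%) in MGMT. Of these, 617 were also called for non-G sites, which is 84.2% of the bins called for G and 86.4% of the bins called for non-G, and all 617 had the same sign in both. Across bins, the difference in G and the difference in non-G had r = 0.897 (n = 2733). Over the 22 autosomes r was 0.986, with 0.30 for both measures on chromosome 15 and -0.29 (G) against -0.34 (non-G) on chromosome 20. These correlations are descriptions, because G and non-G sites of a bin share libraries, mappability and DNA content.

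**Figure D3:**
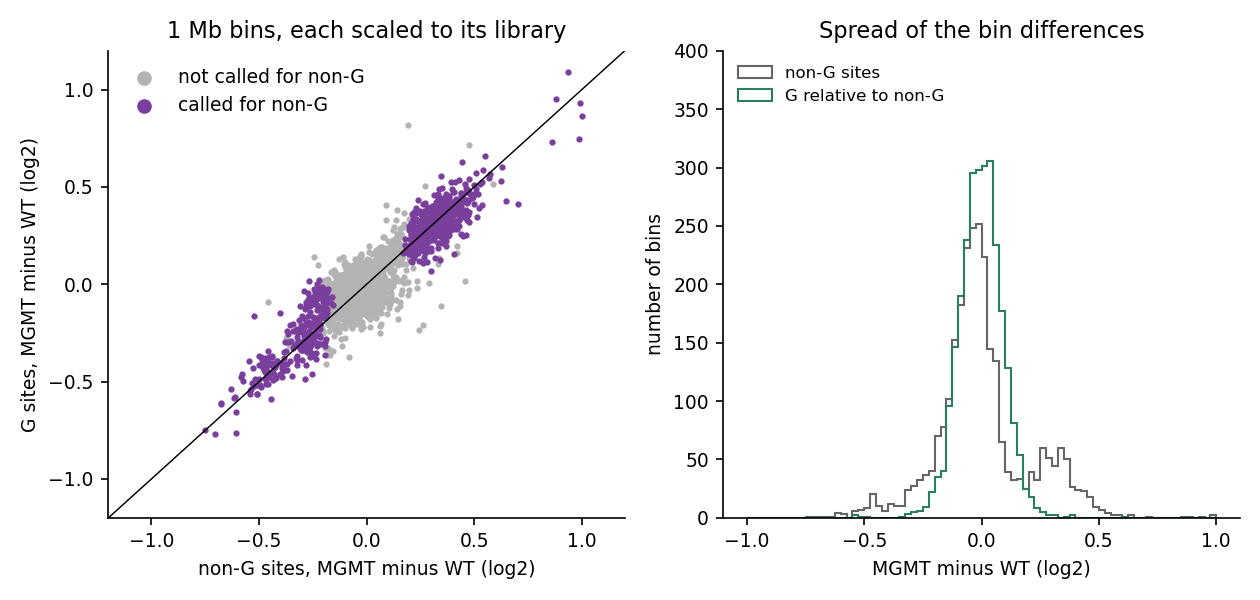
Left, difference of MGMT minus WT in the log2 share of G sites against that of non-G sites in 2733 bins of 1 Mb, where bins called for non-G sites (purple, 714) lie along the line of equal values. Right, histogram of the bin differences for non-G sites and for G relative to non-G sites, in which the shoulders of the non-G histogram at both sides are missing from the scaled one.

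Once G sites were divided by non-G sites, hardly any bin departed from the genome-wide deficit. The scaled log2 differences had a median of -0.0016, and 5% of bins lay below -0.15 and 5% above 0.15. Their SD was 0.0961, where counting error alone gives 0.0854. Only 1 of 2733 bins (0.0366%) passed an adjusted p of 0.05 (limma, Benjamini-Hochberg), and 98 had an unadjusted p under 0.05. The bins were measured closely enough to bound larger effects. In 2692 of them (98.5%) the 95% interval of the difference lay within 1.5-fold in either direction. These intervals use a spread estimated over all bins together. In simulated counts of the same depth 95% of 200 bins changed 1.5-fold were recovered, with 2 false calls among the unchanged bins. The simulated spreads between replicates and libraries were set by hand and not estimated from the data. Replicate effects were shared by both lines in the simulation, so the recovery holds for those settings only. Smaller changes were not simulated.

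The bin that passed was chr20:62000001-63000000, which overlaps 23 protein-coding genes. It held 859, 822 and 1528 G sites in MGMT and 1020, 1681 and 3057 in WT. Its non-G sites numbered 907, 1082 and 1000 in MGMT and 863, 1526 and 2007 in WT. On the scaled log2 measure, with each library set to 0 over its autosomes, MGMT read 0.67, 0.65 and 0.96 and WT 0.54, 0.61 and 0.46. The groups did not overlap, but pair 3 supplied most of the difference (0.13, 0.040 and 0.50). The fitted difference was 0.26 ± 0.056 (SE, limma adjusted p = 0.00861). This SE comes from counts and the spread over all bins together, not from the 3 pairs of this bin alone. No bin passed without replicate 3, while 2 passed without replicate 2. No bin passed with C and T sites as the denominator (smallest limma adjusted p 0.994) or with the spread shared over 12 libraries (0.0686). Its non-G sites fell by 0.23 in MGMT (limma adjusted p = 0.0214), while its G sites as a share of the library did not pass (-0.00080, limma adjusted p = 0.992). The neighbouring bin chr20:63000001-64000000 read 0.22 and did not pass (limma adjusted p = 0.197).

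Whether any regional difference went beyond that of the lines under solvent was tested as an interaction over the 12 libraries given 1 exposure. It was called in 0 of 2733 bins (0%, limma, 58 with an unadjusted p under 0.05). Without replicate 1 it was called in 0 of 2742 bins (smallest limma adjusted p 0.201, 176 with an unadjusted p under 0.05). The simulated counts did not cover this test over 12 libraries. Under solvent 0 bins (0%) differed on the scaled measure.

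The size of the deficit was also compared between bins of different base composition. Bins were ordered by the share of C among non-G sites in solvent controls given 3 doses, which stands in for GC content and uses none of the libraries compared, and split into 5 equal groups. In the group with the lowest C share (547 bins), MGMT minus WT of the log2 ratio of G to non-G was -0.51, -0.58 and -0.56 in pairs 1, 2 and 3. In the group with the highest C share (547 bins) the differences were -0.38, -0.59 and -0.41. Pairs 1 and 3 thus had a smaller deficit in GC-rich bins, and pair 2 had nearly the same deficit throughout. The mean ran from -0.55 to -0.46, and no test was made of this trend. By the share of a bin covered by protein-coding genes the mean ran from -0.54 in the lowest group to -0.50 in the highest.

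**Figure D4:**
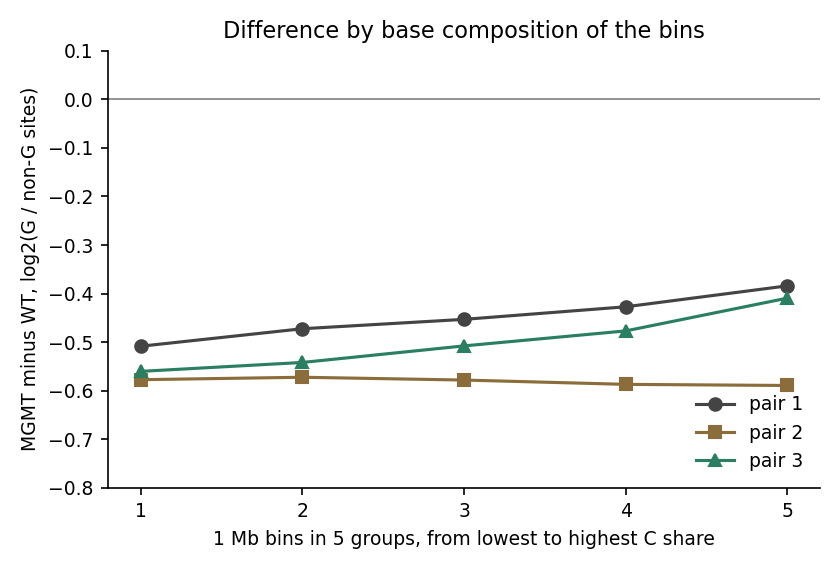
MGMT minus WT of log2(G / non-G sites) in 5 equal groups of 1 Mb bins ordered by the C share of non-G sites in solvent controls, 1 line per replicate pair. Pair 2 stays between -0.59 and -0.57, while pairs 1 and 3 move from -0.51 and -0.56 to -0.38 and -0.41.

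Gene annotation split the genome in another way. The log2 ratio of G per non-G in protein-coding genes over that outside them was 0.11, 0.086 and 0.14 in MGMT and 0.097, 0.098 and 0.10 in WT. The difference of 0.015 ± 0.026 (SD, n = 3 pairs) was within the spread of the pairs (exact permutation p = 0.5, exact sign-flip p = 0.5), and it was 0.0022 without replicate 3 and 0.028 without replicate 2. Within 1 kb of a gene start, the same ratio over all autosomal sites was 0.65, 0.53 and 0.75 in MGMT and 0.56, 0.53 and 0.51 in WT. MGMT replicates 1 and 3 were higher and replicate 2 was level with its WT partner, which gave a mean of 0.11 ± 0.12 (SD, n = 3 pairs, exact permutation p = 0.2, exact sign-flip p = 0.25). It was 0.046 without replicate 3, 0.17 without replicate 2 and 0.068 within 2 kb. The coding strand over the template strand, which blocks transcription when damaged, read 0.16, 0.11 and 0.15 in MGMT and 0.14, 0.11 and 0.097 in WT. The difference was 0.025 ± 0.028 (SD, n = 3 pairs, exact permutation p = 0.3, exact sign-flip p = 0.5), and it was 0.010 without replicate 3 and 0.039 without replicate 2. Strand was known for 15101 of 19126 protein-coding genes.

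Of the 19126 autosomal protein-coding genes, 7289 had at least 10 G and 10 non-G sites in each of the 6 libraries. None passed (0%, limma, Benjamini-Hochberg, 193 with an unadjusted p under 0.05). The 95% interval lay within 2-fold for 84.2% of them. In simulated counts with the same set spreads 46.5% of 200 genes changed 2-fold were recovered, and 12% of 200 changed 1.5-fold, so single genes were much less well measured than bins. The smallest p among higher genes belonged to TPCN2, a lysosomal cation channel, with 0.97 ± 0.25 (SE, limma adjusted p = 0.621). It was followed by SCN8A, a voltage-gated sodium channel (0.52), and PFKFB3, a regulator of glycolysis (0.60). The smallest p among lower genes belonged to PTPRT, a receptor tyrosine phosphatase (-0.19), PXT1, a testis gene (-1.10), and GABRG3, a GABA-A receptor subunit (-0.38), each with a limma adjusted p of 0.999. None of these 6 passed.

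Genes that repair alkylated bases were described next. MGMT spans chr10:129467241-129770983, and most of its length is intron, which a transfected gene would usually lack. It held 77, 103 and 150 G sites in MGMT cells and 79, 231 and 284 in WT, beside 129, 155 and 157 non-G sites in MGMT cells and 83, 216 and 227 in WT. Relative to its library the gene read -0.24, -0.10 and 0.087 in the 3 pairs, and the fitted -0.05 ± 0.17 (SE, limma adjusted p = 0.999) did not pass. Of 8 genes for direct reversal and base excision, 2 were tested and 0 passed. PARP1, which senses strand breaks left by excision, read 0.48 and did not pass.

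Mismatch repair turns unrepaired O6-methylguanine into strand breaks. Of its 8 genes 6 were tested and 0 passed, with a median of 0.16. PMS1, a MutL homolog, read -0.46 and did not pass. Among 15 glioblastoma drivers 10 were tested and 0 passed, with a median of -0.024. The receptor gene EGFR read 0.27 and did not pass.

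Common fragile sites break under replication stress and often lie in giant genes. All 10 such genes were tested and 0 passed, with a median of -0.075 and a range of -0.13 to 0.043. PTPRD, a receptor tyrosine phosphatase, read -0.13, -0.12 and -0.13 in the 3 pairs, and FHIT, the gene at fragile site FRA3B, read -0.04. All 13 long broadly transcribed genes were tested and 0 passed, with a median of -0.065. Over the 7289 genes tested the median was 0.016. No list held a gene that passed, as 0% of all tested genes did.

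The base before a marked G was compared because O6-methylguanine from TMZ forms most readily after a purine. No genome sequence was used. The neighbour was known where another of the 21 libraries outside the comparison had marked it, which held for 6.49% to 7.39% of G sites and weights the values to positions those libraries mark. A purine preceded the G at 83.98%, 78.7% and 84.9% of sites in MGMT and at 86.5%, 83.0% and 87.9% in WT. MGMT was lower in each pair, with overlap between the groups. The difference was -3.27 ± 0.877 points (SD, n = 3 pairs, exact permutation p = 0.3, exact sign-flip p = 0.25, the smallest it allows). G was the commonest preceding base, at 53.1% in MGMT and 55.7% in WT on average. T preceded 13.8% and 11.4%, and C preceded 3.68% and 2.77%. Marked non-G sites, which cannot carry the lesion, also had fewer purines before them in MGMT in each of the 3 pairs. The mean difference was -3.27 points at T sites (pairs -5.23, -2.42 and -2.15, exact permutation p = 0.2), -1.73 at A sites and -1.26 at C sites. With this source of bases the lower purine share was thus not particular to G.

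The size of the shift before G moved with the source of the neighbouring bases. It was -4.20 points with bases from solvent controls, -2.28 from naked DNA and -4.07 from RefSeq promoter windows. With these 3 sources the shift was -1.65, -3.52 and -1.73 points before T sites. Before A sites it was -0.514, -1.93 and -0.675, and before C sites -0.470, -1.35 and 0.148. On the mitochondrial chromosome alone, with bases from the 21 libraries, 14348 of 16569 bases were known. There the difference before G was 0.505 (pairs 0.027, -0.10 and 1.59, exact permutation p = 0.9, exact sign-flip p = 0.75), most of it from replicate 3. In the promoter windows C preceded the G at 11.7%, 13.1% and 11.3% of sites in MGMT and 9.94%, 10.7% and 8.97% in WT. Here the groups did not overlap (exact permutation p = 0.1, the smallest possible). In the same windows A preceded 29.4%, 29.98% and 30.4% in MGMT and 31.6%, 31.8% and 33.3% in WT, without overlap in the other direction (exact permutation p = 0.1).

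G sites in solvent controls followed a purine less often than those under TMZ in all 6 pairs of libraries with bases from naked DNA. With promoter bases MGMT replicate 1 went the other way, at 76.3% under solvent and 73.8% under TMZ. Under solvent, with bases from naked DNA, the share was 86.9%, 73.1% and 72.5% in MGMT and 80.5%, 72.6% and 73.2% in WT. Subtracting the solvent control, scaled to non-G sites, was possible in replicates 2 and 3. With bases from naked DNA the remaining G sites followed a purine in 93.4% and 94.9% in MGMT and 93.7% and 94.6% in WT, a mean difference of -0.012 points. With promoter bases they did so in 79.2% and 83.2% in MGMT and 82.8% and 84.7% in WT, a mean difference of -2.55 points. With only replicates 2 and 3 in each line, exact permutation tests gave p = 1 and p = 0.667, and this design cannot pass 0.05. The sources of bases gave differences of unlike size.

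**Figure D5:**
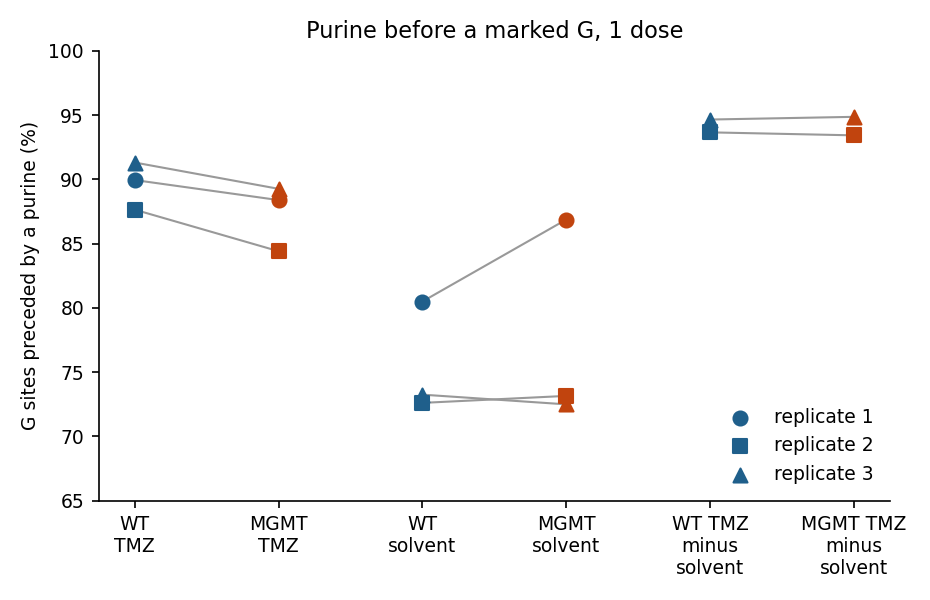
Percent of marked G sites preceded by a purine in libraries given 1 exposure, with neighbouring bases taken from marks in naked DNA, before and after subtraction of the solvent control. Grey lines join libraries of the same replicate number, the subtracted values exist for replicates 2 and 3, and they lie between 93.4% and 94.9% in both lines.

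Of the 16 combinations of the bases before and after the G, 1 passed (6.25%, limma on log2 odds, Benjamini-Hochberg). This was GGC, with the marked G in the middle, which made up 13.2%, 10.9% and 11.2% of G sites in MGMT and 13.7%, 12.3% and 13.9% in WT. MGMT was lower in each pair, with a fitted difference of -0.24 ± 0.065 (SE, limma adjusted p = 0.0121). Of the 8 contexts with a purine before the G, 6 had a difference below 0, and all 8 with a pyrimidine before it were above 0. With bases from solvent controls, naked DNA and promoters, 4, 5 and 6 of 8 purine contexts were below 0 and 5, 7 and 7 of 8 pyrimidine contexts above 0. The 16 contexts are shares of 1 total, so these counts largely restate the lower purine share and give no separate support. AGC read -0.21, CGG 0.42 and TGT 0.35 (limma adjusted p = 0.0589 each). The GGC call was lost with bases from solvent controls (limma adjusted p = 0.786), naked DNA (0.447) or promoters (0.363). The fitted GGC difference was -0.058, -0.21 and -0.11 with these 3 sources. The call was also lost with a minimum score of 40 (where the smallest limma adjusted p over all 16 was 0.0605), without the block, and without replicate 2 or replicate 3. After subtraction of the solvent control, with promoter bases, GGC made up 17.0% in MGMT and 16.4% in WT in replicate 2, and 14.2% and 15.8% in replicate 3. Without replicate 1, 8 contexts were called, and without shared sites 5.

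Each context was also set against the non-G sites of its library, as a description with no test between contexts. The log2 number of sites per non-G site differed by -0.37, -0.73 and -0.74 in the 3 pairs for GGC and by -0.36, -0.80 and -0.67 for AGC. For CGG it differed by -0.11, -0.19 and 0.12, and for CGT by -0.20, -0.0043 and 0.20. The means with a purine before the G were -0.61 for GGC and AGC, -0.55 for GGA, -0.51 for AGG, -0.47 for GGG, -0.43 for AGA, -0.38 for GGT and -0.32 for AGT. Those with T before it were -0.32 for TGC, -0.26 for TGG, -0.17 for TGA and -0.15 for TGT. Those with C before it were -0.25 for CGA, -0.064 for CGG, -0.049 for CGC and -0.0016 for CGT, so that the values for purines and pyrimidines overlapped. With promoter bases the means were -0.44 for GGC, -0.59 for AGC, -0.39 for AGG, -0.42 for CGA, -0.067 for CGG and 0.22 for CGT. The rare contexts rest on few sites, 51 to 131 per library for CGT with bases from the 21 libraries, and solvent background is still in them. After subtraction of the solvent control, with bases from naked DNA, G sites preceded by C in MGMT were 0.627 and 0.827 times those in WT in replicates 2 and 3. Sites preceded by A were 0.502 and 0.625 times those in WT, sites preceded by G 0.526 and 0.639 times, and sites preceded by T 0.520 and 0.570 times. With promoter bases the ratios were 0.753 and 0.850 after C, 0.695 and 0.650 after T, 0.582 and 0.622 after A, and 0.564 and 0.697 after G. All of these lay below 1.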

How the data were processed

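O6-MeG-seq was measured in 6 TMZ libraries, with 6 solvent and 3 naked DNA libraries as background. The libraries given 3 doses served only to know neighbouring bases and, for solvent, to order bins by base composition. Per the submitters' processing notes, FastQC 0.11.9, Trimmomatic 0.38 and 0.39, cutadapt, Bowtie2 2.3.5.1, GATK 4.2.0.0, SAMtools 1.12, bedtools 2.29.2 and GRCh38 were used, with no roles given. The files deposited by the authors list marked sites, each with a score from 0 to 42. The score is not a read number, and read depth is unknown. Groups and replicate numbers came from the labels. Exact permutation p-values set a difference against rearrangements of these libraries. The sign-flip p is 0.25 whenever all 3 pairs have the same sign, whatever their spread. P-values of limma rest on counting weights and a spread estimated over all features together, not on the pairs of 1 feature alone.

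Features with at least 10 G and 10 non-G sites in every TMZ library were tested on log2((G + 0.5)/(non-G + 0.5)), with limma 3.58.1 (R 4.3.3), counting weights, the replicate block and a Benjamini-Hochberg threshold of 0.05. In each library this ratio was set to 0 over all bins for bins, and over all protein-coding genes for genes. It was not set to 0 for autosomes. The fit was tested on simulated data. Single values were tested by exact permutation. The block follows the comparison's rule. Across 2733 bins, deviations of same-numbered libraries had r of 0.023, 0.0023 and 0.0080 for G per non-G and 0.41, 0.35 and -0.12 for non-G sites. This check does not show pairing of regional values. Each library was first scaled to its own total, so the check cannot decide whether the numbers pair the library-wide levels. Same-numbered TMZ libraries of both lines did share more exact non-G sites (924, 19536 and 6765), relative to the product of their sizes, than differently numbered ones. Contexts used G sites with both neighbours known (5899 to 21619 per library).

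The rule for names took up to 5 bins and 10 genes per direction that passed with all pairs one way, otherwise the 3 smallest p, all 16 contexts, and 5 lists of 54 genes. Single values of some list genes are not reported here. Comparison, members and lists were chosen with earlier results of these data known. Genes came from a RefSeq table (GRCh38.p14). Alternatives were the score minimum, shared sites, replicates, block, denominator, added number, weights, feature minimum, bin size and source of neighbours. Promoter bases as a source were added after seeing the data.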

Additional observations from a re-analysis of the deposited data

Results flagged for a closer look

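In G share, MGMT minus WT was below 0 in every pair after TMZ (mean -8.44 points) and above 0 in every pair under solvent (mean 5.40 points), which put the contrast at -13.8 points. The solvent value rests almost wholly on the MGMT solvent library of replicate 1, with a pair difference of 15.9 points against 0.0208 and 0.274 in the other pairs. Without replicate 1 the solvent mean was 0.148 points and the contrast was -9.09 points. On G share the difference between the treatments was not tested. On the ratio of G to non-G sites, the same contrast was -0.391 (exact permutation p = 0.3, exact sign-flip p = 0.25).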

How the results depend on the processing

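The mean difference in G share stayed between -9.47 and -8.02 points over 9 alternatives, and was -6.33 with the labels of MGMT replicate 1 exchanged, an alternative added after seeing the data, and the excess over solvent stayed below 0 in all 7 run. The replicate block is counted among the 9 and the 7, but it repeats the main mean of the pairs and could not differ from it. The exact sign-flip p was 0.25 for both measures, and the design allows none lower. The deficit on autosomes was called on 22 of 22 in 9 alternatives, on 0 without the replicate block and on 0 when 12 libraries shared the spread. The check of deviations did not show pairing of regional values by number, and it cannot decide on library-wide levels, because each library was scaled first. For scaled 1 Mb bins, 11 were called with no minimum score, 2 without the block, 0 with 12 libraries sharing the spread, 0 with C and T sites as denominator, 2 with limma-trend without weights, 0 in bins of 5 Mb and 733 for G sites alone. Leaving out 1 replicate gave 0 to 2. Non-G bins gave 390 to 779 when 1 replicate was left out. For the 16 contexts, 9 were called with no minimum score, 0 with a minimum of 40, 5 without shared sites, 0 without the block, 0 with bases from solvent controls, 0 from naked DNA and 0 from promoters, and leaving out 1 replicate gave 0 to 8. The purine difference turned to 0.505 points on the mitochondrial chromosome, and gene bodies over intergenic sequence turned to -0.0030 with G sites alone. Genes gave 0 calls in all 13 alternatives. The cause of these changes was not tested. Subtracted contexts had no test.

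Few sites per gene limit what single genes can show, and the known neighbours cover a small part of the G sites.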
